A study of Rattus norvegicus with 43 samples.

Results

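The genes described here act between the end of G2 phase and the splitting of the daughter cells. They were followed in A7r5 cells, a vascular smooth muscle line of the rat, by 35 mRNAs read on 43 expression arrays. The list named 40 genes, and a gene was taken through the probe set, a group of short array probes for a transcript, that carried its symbol and no other, or through the brightest of several. By that rule 35 of the 40 were measured, namely 11 of 12 genes of mitotic entry, 9 of 12 of the spindle and kinetochore, 7 of 7 of the checkpoint, 3 of 3 of anaphase, and 5 of 6 of cytokinesis. Ncapg, Tpx2, Nek2, Ndc80 and Anln were not analysed here. All 35 passed a filter on low values (log2 above 4 in at least 4 arrays), as did 9095 genes of the whole table.

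Mitosis begins when the kinase Cdk1, bound to a B-type cyclin, outruns the enzymes that hold it back. Chromosomes then condense and attach by kinetochores to spindle microtubules, while the spindle checkpoint holds the anaphase-promoting complex, a ubiquitin ligase, in check. Cdc20 activates that ligase once all chromosomes are attached, securin (Pttg1) and cyclin B are destroyed, and centralspindlin and RhoA divide the cell. Most of these mRNAs are made only as a cell nears division, through the transcription factors Foxm1 and B-Myb (Mybl2) with the MuvB complex, so they mark dividing cells. In an extract of a whole culture, fewer dividing cells and less mRNA in each cannot be told apart.

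The cells were kept in medium with 2.5, 10 or 100 ng/ml folic acid, called deficient, sufficient and excess, for 7, 14 or 21 days. There were 5 arrays in each of 7 groups, and 4 in the deficient and excess groups of day 7. The labels name no genetic change or drug, and the line stands for smooth muscle grown alone in a dish. Whether replicate arrays came from separate cultures is not given in the labels, so each p reflects the scatter among these arrays, which could be technical. The question of the study was how a low folate supply acts on vascular smooth muscle, and the excess medium adds a high dose.

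Array medians lay between 3.66 and 3.72 (log2), and replicates of a group correlated at 0.991 to 0.998 over probe sets. Smooth muscle markers passed the filter in 12 of 12 cases, with Acta2 at 13.38 to 14.57 and Tagln at 13.82 to 14.42. Markers of other cell types were mostly low. The endothelial and macrophage lists had 1 passing gene each of 7 and 8, and the epithelial list 1 of 6. Pecam1, Ptprc and Epcam stayed at or below 2.86, 2.81 and 2.37. The passing genes were endothelial Vwf (at or below 4.26), macrophage Cd14 (5.20 to 6.72) and epithelial Krt8 (7.02 to 9.12). Cd14 and Krt8 were thus above the filter limit in every array. Skeletal muscle markers passed in 6 of 10 cases, and their values are given beside the excess medium results. The difference between the 3' and 5' probe sets of beta-actin, a measure of RNA integrity and labelling, exceeded 2 (log2) in 8 arrays, of which 3 were excess at day 14, 3 excess at day 21 and 2 sufficient at day 7. Leaving out these arrays, or those with serial numbers above 45, makes groups smaller, which by itself can cost calls.

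Promoters are shown because many genes of this group are known to share a pair of short elements. The cell cycle genes homology region (CHR, TTTGAA) is bound by MuvB, and the CCAAT box by NF-Y. Of the 35 measured genes, 30 had a promoter window in the RefSeq table of the GRCr8 build, covering 250 bases before to 50 after the start of the gene. Foxm1, Ccna2, Aurkb, Ube2c and Racgap1 were not among them. The last 150 bases before the start are printed for 3 genes with both elements and large changes below, and for the 2 genes that differed least between excess and sufficient medium at days 14 and 21. Capitals mark TTTGAA and CCAAT on either strand (TTCAAA and ATTGG on the other).
Cdc20 (chr5:137255800-137255949, minus strand): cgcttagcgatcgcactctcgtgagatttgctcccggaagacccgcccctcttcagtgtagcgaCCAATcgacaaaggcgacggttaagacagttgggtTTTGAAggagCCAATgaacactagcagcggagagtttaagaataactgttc
Ccnb2 (chr8:79981659-79981808, minus strand): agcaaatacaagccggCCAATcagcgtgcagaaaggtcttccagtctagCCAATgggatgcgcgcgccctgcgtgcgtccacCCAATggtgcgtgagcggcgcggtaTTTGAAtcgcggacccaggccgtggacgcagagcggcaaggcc
Pttg1 (chr10:28406327-28406476, minus strand): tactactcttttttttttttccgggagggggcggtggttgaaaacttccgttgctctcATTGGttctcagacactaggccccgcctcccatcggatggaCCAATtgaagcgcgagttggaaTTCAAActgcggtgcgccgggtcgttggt
Mybl2 (chr3:172124655-172124804, plus strand): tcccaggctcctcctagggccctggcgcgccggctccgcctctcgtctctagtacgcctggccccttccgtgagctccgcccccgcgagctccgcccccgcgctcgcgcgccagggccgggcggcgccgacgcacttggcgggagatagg
Dsn1 (chr3:166085891-166086040, minus strand): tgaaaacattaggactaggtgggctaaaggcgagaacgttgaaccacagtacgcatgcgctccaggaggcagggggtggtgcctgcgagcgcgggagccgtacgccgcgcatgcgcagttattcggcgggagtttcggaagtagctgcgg

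In Ccnb2, which encodes a B-type cyclin, 3 CCAAT boxes began 134, 101 and 68 bases before the start, and a TTTGAA 43 bases before it. Cdc20 had its TTTGAA 51 bases and its CCAAT boxes 86 and 41 bases before the start. Over both strands of the full window of 300 bases, TTTGAA occurred in 18 of 30 genes (60%, against 19.4% of 27457 genes in the table), and CCAAT in 22 (73.3% against 39.6%). Both occurred in 15 of the 30 (50% against 7.96% of all), and at least 2 CCAAT boxes in 16 (53.3% against 12.2%). On the strand of the gene alone TTTGAA was in 15 (50% against 10.9%). GCGGGAA, a form of the E2F site, was in 1, Kif23 (3.33% against 4.71%). By their letters these motifs can share an end base, which TTTGAA and a CCAAT box did in 1 of the 30 genes, Mki67. A match is a description and not a measured site. Aurka, Bub1, Kif2c, Mybl2 and Dsn1 held neither TTTGAA nor CCAAT in this window. The annotated start of Aurka lies a few bases before an ATG, so its window may not be the promoter. In excess against sufficient medium at day 14, Aurka, Kif2c and Bub1 were higher by 1.78, 1.74 and 0.96, and Mybl2 (0.13) and Dsn1 (0.18) did not pass. Kif20a (2.28) held no TTTGAA and Bub1b (2.07) no CCAAT. The printed promoters were chosen by size of change, some also by motif, so they do not show whether motif and change go together.

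The largest median differences of the 35 genes were between days 7 and 14 in deficient (-1.96) and sufficient medium (-1.81). In excess medium that median (-0.63) was smaller than the differences between excess and the other media at day 14. Between days 7 and 14 the difference was downward for every gene in every medium. In sufficient medium the mean of the 35 genes fell from 9.34 ± 0.12 at day 7 to 7.56 ± 0.05 at day 14 and 7.01 ± 0.07 at day 21 (log2, SD, n = 5 each). In deficient medium it went from 9.39 ± 0.02 (n = 4) to 7.41 ± 0.11 and 6.81 ± 0.07. In excess medium the path was shallower, from 9.51 ± 0.12 (n = 4) to 8.91 ± 0.08 and 8.17 ± 0.05. The ranges of the 3 days did not overlap in any medium. This mean sums probe sets of different brightness, so it serves only to compare arrays.

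**Figure D1:**
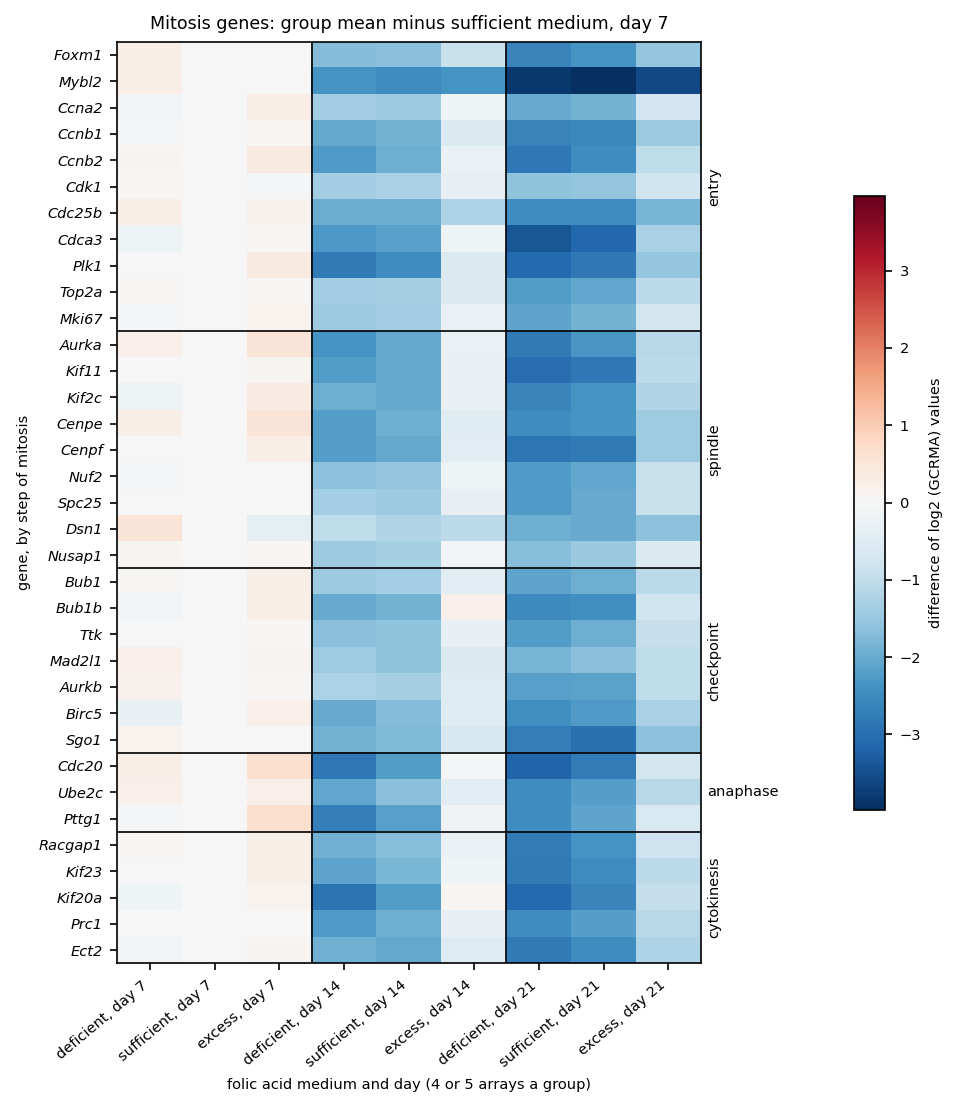
Group mean of each of the 35 mitosis genes minus its mean in sufficient medium at day 7 (colour, log2 difference), with genes in rows by step and the 9 groups in columns. Excess medium at days 14 and 21 is paler than the other media of the same day in nearly all rows, and Mybl2 is the clearest exception.

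From day 7 to day 14, 35 of 35 genes fell in sufficient medium (limma, adjusted p under 0.05, Benjamini-Hochberg over 9095 genes), where 24.7% of all genes tested fell. The median difference was -1.81 on the log2 scale, against -0.03 over all genes tested. Mybl2 fell by 2.50 ± 0.17 (SE), the largest fall of the 35. It was followed by Plk1, the polo-like kinase that drives entry (-2.46 ± 0.11), and Cdc20 (-2.23 ± 0.13). The smallest falls were in Dsn1, a subunit of the MIS12 kinetochore complex (-1.20 ± 0.10), Cdk1 (-1.29 ± 0.07) and Nusap1, a bundler of spindle microtubules (-1.31 ± 0.08). By step the medians were -1.87 for entry, -1.93 for the spindle, -1.60 for the checkpoint, -2.15 for anaphase and -1.94 for cytokinesis. Every step fell. The genes of entry covered the widest range: Mybl2, at one end, fell by 2.50, and at the other end the difference was -1.29.

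In deficient medium 35 of 35 again fell from day 7 to day 14, against 26.2% of all genes, with a median of -1.96. Cdc20 fell by 3.07 ± 0.14, or 8.41-fold, Plk1 by 2.84 ± 0.11 and Kif20a, a kinesin of the central spindle, by 2.73 ± 0.18. At the low end were Ccna2, cyclin A2 (-1.27 ± 0.12), Spc25, a subunit of the NDC80 complex (-1.39 ± 0.08), and Mki67, which coats mitotic chromosomes (-1.41 ± 0.07). The step medians were -1.96, -1.75, -1.62, -2.62 and -2.10 in the same order, with anaphase again the lowest.

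In excess medium 30 of 35 fell over the same week, against 20.9% of all genes, and the median difference was -0.63. The step medians lay between -0.69 for anaphase and -0.40 for cytokinesis. Mybl2 fell most (-2.37 ± 0.19; in sufficient medium it fell by 2.50 and in deficient medium by 2.60), followed by Cdc25b, the phosphatase that switches Cdk1 on (-1.38 ± 0.19), and Cenpe, the kinetochore kinesin (-0.98 ± 0.13). The 5 that did not pass were Bub1b (-0.03 ± 0.12), Kif20a (-0.08 ± 0.18), Nusap1 (-0.19 ± 0.08), Nuf2 (-0.21 ± 0.11) and Cdca3 (-0.23 ± 0.14). Cdk1 (-0.25 ± 0.08), Kif11, the motor that pushes spindle poles apart (-0.43 ± 0.15), Ccna2, Prc1, Spc25 and Ttk passed but lost the call when arrays with serial numbers above 45 were left out, for example Cdk1 at -0.09 with an adjusted p of 0.529 in limma. Without the 8 arrays of high beta-actin difference Cdk1 (0.144), Kif11 (0.0846) and Ccna2 (0.0992) lost it as well. Kif11 also lost it without excess day 7 replicate 6 (adjusted p = 0.108).

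Between days 14 and 21 the fall went on at a slower pace in deficient and sufficient medium. It reached 32 of 35 genes in deficient medium (17.9% of all genes fell, median of the 35 -0.62), 30 of 35 in sufficient medium (16.7%, median -0.52) and 35 of 35 in excess medium (11.2%, median -0.70). Without the 8 arrays of high beta-actin difference, 6 of which are late excess arrays, 32 fell in excess medium. Pttg1 (-0.31, limma adjusted p = 0.373), Cdc25b (-0.58, 0.221) and Aurkb (-0.43, 0.0573) then did not pass. Mybl2 fell most in all 3 media, by 1.51 ± 0.17, 1.47 ± 0.17 and 1.21 ± 0.17. Next came Cdca3, an adaptor linked to the breakdown of Wee1, in deficient (-1.13 ± 0.13) and excess medium (-1.10 ± 0.13), and Sgo1, shugoshin, in sufficient medium (-1.22 ± 0.11). Pttg1 did not pass in deficient (0.23 ± 0.13) or sufficient medium (0.06 ± 0.13), and its values at day 21 were near those of day 14. Kif20a also did not pass in deficient (-0.18 ± 0.17) or sufficient medium (-0.41 ± 0.17), and fell in excess medium (-1.03 ± 0.17).

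The smallest of these later differences were in Kif20a, Cdk1 (-0.22 ± 0.07) and Prc1 (-0.22 ± 0.09) in deficient medium. In limma Cdk1 lost its call there without deficient day 14 replicate 1 (adjusted p = 0.0631) or 5 (0.0556). Prc1 lost it without deficient day 14 replicate 2, 3 or 5 or day 21 replicate 4 or 5 (adjusted p 0.0542 to 0.179). Plk1 lost its call without any 1 array but deficient day 21 replicate 4 (limma adjusted p 0.0504 to 0.150). Cdc20 lost its call without day 14 replicate 1, 2, 3 or 5 or day 21 replicate 2, 3 or 5 (0.0503 to 0.132). Cdc25b lost its call without day 14 replicate 3 or day 21 replicate 3, 4 or 5, and Birc5 without day 21 replicate 5 (0.0608 to 0.0793). In sufficient medium the smallest differences were in Mad2l1, the MAD2 part of the checkpoint complex (-0.05 ± 0.10), Pttg1 and Nusap1 (-0.15 ± 0.08), of which none passed. There Kif2c lost its call without day 14 replicate 2, 4 or 5 or day 21 replicate 1, 3 or 4 (limma adjusted p 0.0548 to 0.0796). Cdc25b lost its call without day 14 replicate 1 or 2 or day 21 replicate 3 or 6, and Prc1 without day 14 replicate 2 or day 21 replicate 6 (0.0571 to 0.109). With any 1 array left out, 27 to 32 genes passed in deficient medium, 28 to 32 in sufficient medium and 35 in excess medium. In excess medium Mad2l1 (-0.44 ± 0.10), Top2a, which untangles sister DNA (-0.46 ± 0.09), and Nusap1 (-0.46 ± 0.08) fell least.

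Few of these genes passed the threshold in deficient against sufficient medium, 0, 1 and 2 of 35 at days 7, 14 and 21. With array weights, which let noisier arrays count less, the numbers were 1, 6 and 9, the 1 at day 7 being higher and the others lower. Shares over all genes given below are of the fit without weights and do not apply to these weighted counts. At days 14 and 21 the unadjusted p in limma was under 0.05 in 10 and 19 of the 35, against 787 and 1118 of 9095 genes. By step the 19 were 4 of 11 for entry, 4 of 9 for the spindle, 3 of 7 for the checkpoint, 3 of 3 for anaphase and 5 of 5 for cytokinesis. At day 7, 0 of 35 passed in limma (0% of all genes tested), and the median difference was 0.03. An unadjusted p under 0.05 was found in 1 of the 35, against 551 of 9095 genes. That gene was Dsn1, which was 0.53 ± 0.11 higher with an adjusted p of 0.16. Its arrays read 8.99, 8.90, 9.16 and 9.02 in deficient and 8.85, 8.15, 8.66, 8.31 and 8.46 in sufficient medium, with no overlap. The lowest value of a difference at day 7 was in Birc5, survivin (-0.31 ± 0.15).

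At day 14, 1 of 35 passed, lower in deficient medium, against 0.055% of all genes called lower. It was Cdc20, the activator of the anaphase-promoting complex. Cdc20 read 5.45, 5.52, 5.64, 5.67 and 5.20 in deficient and 6.21, 6.01, 6.10, 6.07 and 6.19 in sufficient medium. All deficient arrays lay below all sufficient ones, and the difference was -0.62 ± 0.13 (1.54-fold, limma adjusted p = 0.046). The call was lost when any of 8 of the 10 arrays was left out (adjusted p 0.0620 to 0.117). Those were all but deficient replicate 5 and sufficient replicate 5, and leaving out either of them gave 2 passing genes. It was lost too in a fit of the 2 groups alone (0.0731), without a filter (0.0641), with array serial numbers up to 45 (0.0781) and with the replicate number as a block (0.0935), all limma adjusted p. Of the 35 differences 27 were negative, and the values not passing ran from Kif20a (-0.69 ± 0.17, limma adjusted p = 0.077) to Mad2l1 (0.20 ± 0.10).

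At day 21, 2 of 35 passed, both lower, against 0.374% of all genes called lower. Racgap1 is a subunit of centralspindlin, the complex that sets the division plane. It read 8.05, 8.07, 7.91, 8.27 and 8.21 in deficient and 8.43, 8.63, 8.62, 8.57 and 8.41 in sufficient medium, without overlap. The difference was -0.43 ± 0.08, or 1.35-fold (limma, adjusted p = 0.0027). It kept the call without any of the 10 arrays, and lost it when its 2 probe sets were averaged (adjusted p = 0.070).

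Aurka, the Aurora A kinase of the spindle poles, read 5.62, 5.28, 5.16, 4.93 and 5.60 in deficient and 5.81, 5.82, 5.75, 5.98 and 5.73 in sufficient medium at day 21. These ranges did not overlap either, and the difference was -0.50 ± 0.12, or 1.41-fold (limma, adjusted p = 0.028). The call was lost without deficient replicate 3, 4 or 5 or sufficient replicate 1, 2, 3 or 4 (adjusted p 0.0515 to 0.106), in a fit of the 2 groups alone (0.110) and with serial numbers up to 45 (0.0936). Over all 35 genes 32 differences were negative, with a median of -0.24 against -0.01 over all genes tested, and the highest was Sgo1 (0.22 ± 0.11, not passing). By step the medians ran from -0.14 for the checkpoint to -0.39 for anaphase. Groups did not overlap, with deficient lower, in 5 of 35 genes against 2.16% of all genes. The change of the deficiency difference from day 7 to day 21 passed in 0 of 35 genes in limma (0.022% of all genes passed downward). The unadjusted p was under 0.05 in 13 of the 35, against 984 of 9095 genes. The median change was -0.27.

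Excess was set against sufficient medium at day 7 in the same way. There, 5 of 35 genes passed, all higher in excess, against 0.275% of all genes called higher, with a median of 0.12 against -0.06 over all genes tested. They were Pttg1 and Cdc20 of anaphase, Aurka and Cenpe of the spindle, and the checkpoint kinase Bub1.

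Pttg1, securin, holds back the protease that cuts sister chromatids apart. At day 7 it read 8.93, 9.46, 8.92 and 9.27 in excess and 8.74, 8.82, 8.60, 8.27 and 8.09 in sufficient medium, a difference of 0.64 ± 0.14 (1.56-fold, limma adjusted p = 0.011). Cdc20 read 8.96, 8.88, 9.07 and 8.98 against 8.35, 8.77, 8.42, 8.16 and 8.04, a difference of 0.63 ± 0.14 (1.54-fold, adjusted p = 0.011 in limma). Neither gene's excess values overlapped the sufficient ones.

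Aurka read 8.38, 8.92, 8.34 and 8.83 in excess and 8.32, 8.26, 8.21, 7.85 and 7.95 in sufficient medium (0.50 ± 0.12, limma adjusted p = 0.023). Cenpe read 7.68, 7.90, 7.64 and 7.29 against 6.68, 7.29, 7.36, 7.25 and 7.03 and was the only called gene whose groups overlapped (0.50 ± 0.13, limma adjusted p = 0.034). Bub1 read 10.81, 10.77, 10.79 and 10.89 against 10.63, 10.60, 10.47, 10.56 and 10.61, a small difference between tight groups (0.24 ± 0.07, limma adjusted p = 0.040). At the other end, Dsn1 was the lowest of the 35 (-0.36 ± 0.11, not passing).

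These calls at day 7 rest on few arrays. Pttg1 kept its call without any 1 of the 9 arrays, and Cdc20 lost it without excess replicate 3 (limma adjusted p = 0.0557). Aurka lost it without sufficient replicate 4 or excess replicate 4 or 6 (0.0575 to 0.101), and Cenpe without sufficient replicate 1 or 5 or excess replicate 1, 3 or 6 (0.0508 to 0.137). Bub1 lost it without sufficient replicate 1, 2, 4 or 6 or excess replicate 1, 3 or 4 (0.0639 to 0.128). The count was 3 without sufficient replicate 1 or 4 or excess replicate 1 or 4, and 2 without excess replicate 3. Without the 8 arrays of high beta-actin difference, 2 of them sufficient arrays of day 7, Aurka (0.0678), Cenpe (0.216) and Bub1 (0.153) lost the call, and 4 of the 35 passed. Cenpe lost it with that difference as a covariate (0.0557) and with the replicate number as a block (0.0527). Serial numbers up to 45 left 3 genes, and with array weights 9 passed, 8 of them higher. No share over all genes is given for these settings. Fitted on these 2 groups alone, none of the 5 passed (limma adjusted p 0.16 to 0.252).

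At day 14 excess medium held nearly the whole group at a higher level. Of 35 genes 33 were higher, against 22.3% of all genes called higher and 18.8% called lower, with a median of 1.30 (2.47-fold) against 0.01 over all genes tested. In 32 of the 35 the 5 excess arrays lay above the 5 sufficient ones, against 11.4% of all genes. Mybl2 and Dsn1 did not pass.

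Among the genes of entry at day 14, 10 of 11 were higher (median 1.11). Cdca3 read 9.51, 9.03, 9.21, 9.13 and 9.05 in excess and 7.12, 7.38, 7.18, 7.07 and 7.28 in sufficient medium (1.98 ± 0.13, 3.95-fold, limma adjusted p = 4.7e-15). Plk1 was higher by 1.89 ± 0.11 and the cyclin Ccnb2 by 1.66 ± 0.12. Foxm1, the factor that switches on many of the others, read 5.78, 6.23, 5.93, 6.80 and 6.35 against 5.63, 5.56, 5.00, 5.68 and 5.29. It was higher by less (0.79 ± 0.14, 1.73-fold, limma adjusted p = 2.6e-05), again without overlap.

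Of the spindle and kinetochore genes 8 of 9 were higher at day 14 (median 1.46). Aurka read 7.88, 8.00, 7.71, 7.80 and 7.88 in excess and 5.72, 6.25, 5.93, 6.27 and 6.19 in sufficient medium (1.78 ± 0.12, 3.44-fold, limma adjusted p = 3e-15). Kif2c, a kinesin that shortens microtubules, was higher by 1.74 ± 0.12. Kif11 read 8.51, 8.54, 8.48, 8.75 and 8.51 against 6.79, 7.22, 6.85, 6.92 and 6.41 and was higher by 1.72 ± 0.14. Cenpe read 6.53, 6.95, 6.32, 6.91 and 6.54 against 4.90, 5.15, 5.34, 5.09 and 5.46, again with no overlap.

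All 7 checkpoint genes were higher at day 14 (median 1.11). Bub1b, the BubR1 part of the mitotic checkpoint complex, read 8.65, 8.31, 8.44, 8.54 and 8.23 in excess and 6.24, 6.28, 6.62, 6.37 and 6.32 in sufficient medium (2.07 ± 0.11, 4.19-fold, limma adjusted p = 3.1e-17). The kinase Ttk at the top of the checkpoint followed (1.26 ± 0.10), then Birc5 (1.23 ± 0.14). Bub1 read 10.20, 10.26, 10.07, 10.16 and 10.14 against 9.24, 9.29, 9.09, 9.17 and 9.24 and was higher by 0.96 ± 0.06.

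The 3 anaphase genes were all higher at day 14 (median 2.01). Cdc20 read 8.28, 8.26, 8.40, 8.53 and 7.95 in excess against the sufficient values given above, a difference of 2.17 ± 0.13 or 4.50-fold (limma, adjusted p = 4.7e-16). Pttg1 read 8.27, 8.25, 8.35, 8.67 and 8.24 against 6.24, 6.53, 6.35, 6.23 and 6.42 (2.01 ± 0.13, 4.01-fold). Ube2c, which hands ubiquitin to the anaphase-promoting complex, was higher by 1.22 ± 0.11.

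All 5 cytokinesis genes were higher at day 14 (median 1.62), and Kif20a had the largest difference of the 35. It read 9.05, 9.17, 9.00, 9.34 and 9.15 in excess and 6.65, 6.63, 7.19, 7.16 and 6.67 in sufficient medium (2.28 ± 0.17, 4.86-fold, limma adjusted p = 1.2e-13). Kif23, the kinesin of centralspindlin, was higher by 1.65 ± 0.10 and Prc1, which crosslinks antiparallel microtubules, by 1.62 ± 0.09. Racgap1 read 10.61, 10.61, 10.61, 10.71 and 10.54 against 9.21, 9.19, 9.23, 9.15 and 9.27, the 5 excess arrays lying close together.

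**Figure D2:**
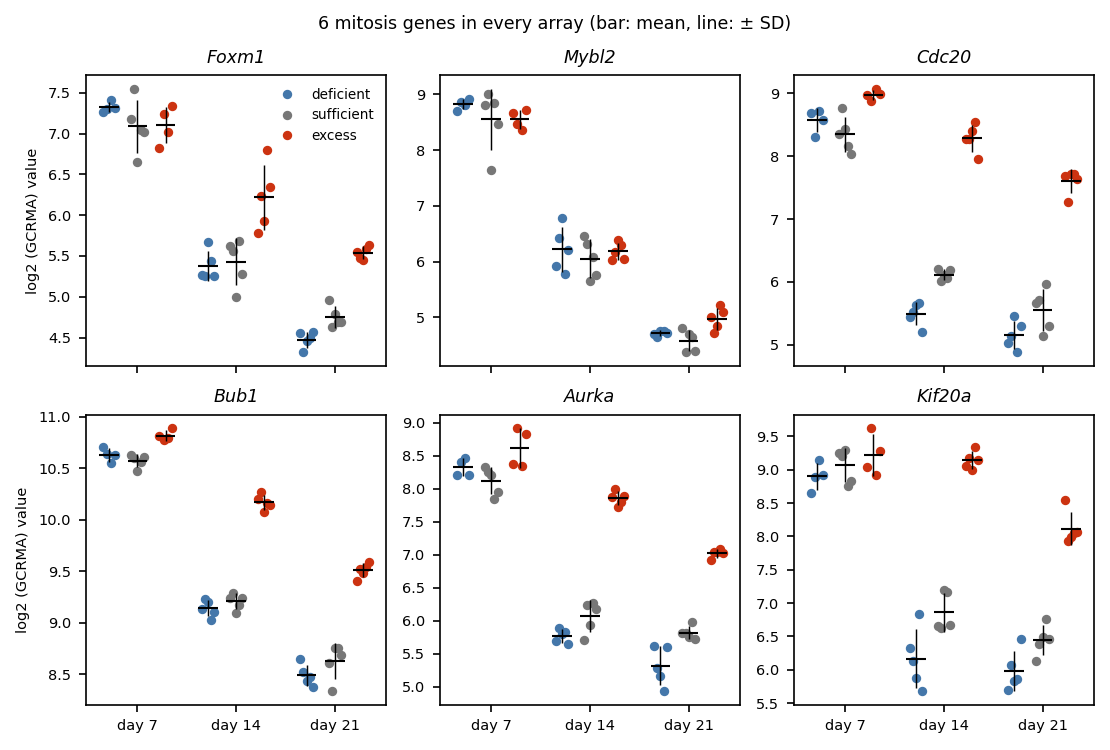
Log2 value of 6 mitosis genes in each array (points, coloured by medium), with the group mean (bar) and SD (line), by day. Cdc20, Bub1, Aurka and Kif20a in excess medium stand clear of the other media at days 14 and 21, Foxm1 does so by less, and the media overlap for Mybl2.

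At day 21, 34 of 35 genes were higher in excess than in sufficient medium, against 24.4% of all genes, with a median of 1.13 (2.18-fold) against 0.03 over all genes tested. Groups did not overlap in 33 genes, against 15.1% of all. The counts by step were 10 of 11 for entry, 9 of 9 for the spindle, 7 of 7 for the checkpoint, 3 of 3 for anaphase and 5 of 5 for cytokinesis, and the medians 1.10, 1.19, 1.00, 1.48 and 1.45.

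Cdc20 led the day 21 comparison. It read 7.68, 7.27, 7.72, 7.72 and 7.63 in excess and 5.67, 5.71, 5.14, 5.97 and 5.30 in sufficient medium, a difference of 2.05 ± 0.13 or 4.14-fold (limma, adjusted p = 9e-16). Cdca3 read 7.85, 7.90, 8.29, 8.08 and 8.31 against 6.32, 6.46, 6.41, 6.31 and 5.79 (1.83 ± 0.13, 3.55-fold). Kif11 read 7.62, 7.75, 7.83, 8.03 and 7.84 against 5.87, 6.48, 6.14, 5.78 and 5.82 (1.80 ± 0.14, 3.48-fold). For each of these the lowest excess array was above the highest sufficient array by more than 1 on the log2 scale.

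Kif20a read 8.55, 7.93, 7.99, 8.05 and 8.06 in excess and 6.13, 6.38, 6.49, 6.77 and 6.47 in sufficient medium at day 21 (1.67 ± 0.17). Bub1b read 7.46, 7.21, 7.46, 7.38 and 7.70 against 5.57, 6.01, 5.89, 5.81 and 5.78 (1.63 ± 0.11). Racgap1 read 10.11, 9.91, 10.19, 10.01 and 10.08 against the sufficient values given for deficiency (1.53 ± 0.08, 2.88-fold, limma adjusted p = 1.8e-18), the smallest p of the 35 in this comparison. Aurka, by contrast with Racgap1, was nearer to sufficient than at day 14, at 6.91, 7.04, 7.04, 7.09 and 7.02 (1.20 ± 0.12).

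Others past the threshold at day 21 were Ccnb2 (1.48 ± 0.12), Pttg1 (1.48 ± 0.13), Kif23 (1.45 ± 0.10), Cenpf, a kinetochore-associated protein (1.39 ± 0.10), Sgo1 (1.35 ± 0.11), Plk1 (1.29 ± 0.11), Aurkb, the kinase of the chromosomal passenger complex (1.11 ± 0.09), and Ube2c (1.08 ± 0.11). Foxm1 read 5.55, 5.47, 5.45, 5.59 and 5.63 against 4.96, 4.63, 4.79, 4.69 and 4.69, with the same difference as at day 14 (0.79 ± 0.14).

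Mybl2 went its own way among the genes of entry. At day 14 it read 6.02, 6.17, 6.38, 6.29 and 6.05 in excess, 6.46, 6.32, 5.66, 6.07 and 5.76 in sufficient and 5.92, 6.43, 6.78, 5.78 and 6.20 in deficient medium, and at day 21 5.01, 4.72, 4.84, 5.22 and 5.09, 4.81, 4.37, 4.69, 4.64 and 4.40 and 4.69, 4.64, 4.76, 4.76 and 4.72. The media overlapped on both days, and the difference of excess from sufficient was 0.13 ± 0.17 (limma, adjusted p = 0.58) and 0.39 ± 0.17 (adjusted p = 0.066). The second, dimmer Mybl2 probe set gave 0.21 and 0.44. The 95% interval of these differences was -0.22 to 0.48 at day 14 and 0.04 to 0.75 at day 21, below the median of the group at both days.

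Dsn1 was the other exception. It read 7.37, 7.63, 7.38, 7.39 and 7.56 in excess and 7.30, 7.48, 7.04, 7.30 and 7.33 in sufficient medium at day 14 (0.18 ± 0.10, limma adjusted p = 0.17, 95% interval -0.03 to 0.38). At day 21 it was higher in excess by 0.36 ± 0.10 (limma, adjusted p = 0.0040), with overlapping groups. At day 7 it had run the other way, with means of 9.01 in deficient, 8.49 in sufficient and 8.13 in excess medium. Its excess arrays then read 8.17, 8.23, 7.99 and 8.13, below all 4 deficient arrays.

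**Figure D3:**
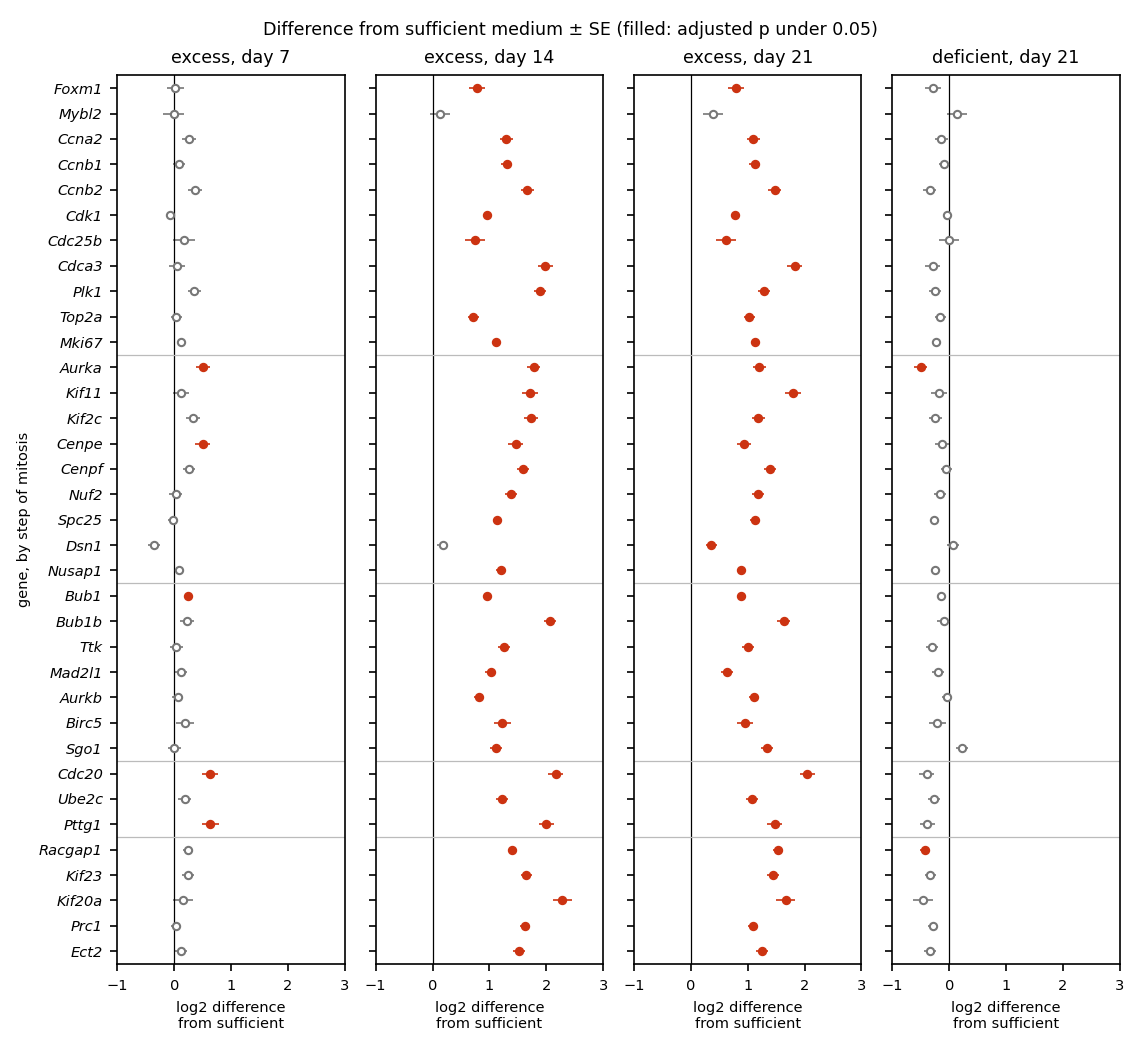
Difference from sufficient medium of the same day (points, log2, with SE) for each of the 35 mitosis genes, for excess at days 7, 14 and 21 and deficient at day 21. Filled points passed an adjusted p of 0.05 in limma (5, 33, 34 and 2 genes), and Mybl2 and Dsn1 lie nearest to 0 in the excess panels of days 14 and 21.

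The size of the excess difference changed with time. From day 7 to day 14 it grew in 33 of 35 genes (13.8% of all genes grew, median of the 35 1.17), and from day 7 to day 21 in 32 of 35 (17% of all, median 0.99). The tests share the day 7 arrays. Growth by day 14 was largest in Kif20a (2.13 ± 0.25), Cdca3 (1.93 ± 0.19) and Bub1b (1.85 ± 0.17). Growth by day 21 did not pass in Mybl2 (0.40 ± 0.25), Cdc25b (0.44 ± 0.26) and Cenpe (0.43 ± 0.18). Their sufficient arrays at day 21 read 4.37 to 4.81, 4.72 to 5.66 and 4.53 to 4.94, and near background a fold change is compressed. Aurka, Birc5, Foxm1 and Mad2l1 passed by day 21 but not without the 8 arrays of high beta-actin difference (limma adjusted p = 0.103, 0.0909, 0.0582 and 0.372). Kif23 lost both calls when its 2 probe sets were averaged (limma adjusted p = 0.112 and 0.204). Its second, dimmer set ran the other way, at -0.42 by day 14 and -0.43 by day 21, against 1.41 and 1.20 for the set used. Dimmer sets of some other genes grew by less than the sets used, without a change of sign. By day 14 and day 21 these gave 0.22 and 0.15 in Kif2c (against 1.40 and 0.85) and 0.18 and 0.39 in Ttk (against 1.23 and 0.97). The dimmest Mad2l1 set gave 0.28 and 0.20 (against 0.90 and 0.51). Dimmer sets gave 0.86 and 0.46 in Kif11 (against 1.60 and 1.68), 0.92 and 0.63 in Cdc20 (against 1.54 and 1.42) and 0.72 and 0.73 in Racgap1 (against 1.17 and 1.29). The dimmer Mybl2 set grew by slightly more than the set used (0.19 and 0.42 against 0.14 and 0.40). By day 14 so did the middle Mad2l1 set (1.06 against 0.90).

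Between days 14 and 21 the excess difference shrank in 4 of 35 genes, against 4.67% of all genes, and the median change was -0.19. They were Plk1 (-0.60 ± 0.15), Aurka (-0.58 ± 0.16), Kif2c (-0.55 ± 0.17) and Prc1 (-0.52 ± 0.12). Sufficient arrays at day 21 read 4.94 to 5.09 in Plk1 and 4.69 to 5.19 in Kif2c, not far above background, where a fold change is compressed. Those of Aurka (5.73 to 5.98) and Prc1 (7.77 to 8.23) were higher. The part of this compression was not tested. Kif2c lost the call without any of 10 of the 20 arrays, these being sufficient day 14 replicates 1 and 3, excess day 14 replicates 4 and 6, sufficient day 21 replicates 2 and 6, and excess day 21 replicates 1, 3, 4 and 5 (limma adjusted p 0.0506 to 0.0835). Aurka lost it without sufficient day 14 replicate 1 (limma adjusted p = 0.0564), where 2 genes passed. Leaving out the 8 arrays of high beta-actin difference, only Plk1 passed, and with serial numbers up to 45 the count was 2. The first of these settings left only excess replicates 5 and 6 at day 14 and 1 and 2 at day 21. Aurka then stood at -0.71 (limma adjusted p = 0.0849), further from 0 than with all arrays. The part of the smaller groups in the lost calls was not tested. With array weights it was 8, 7 of them shrinking, and Kif2c lost its call when its probe sets were averaged (limma adjusted p = 0.168).

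Deficient and excess medium were also set against each other, using the arrays already described. At day 7, 2 of 35 genes were lower in deficient medium (0.968% of all genes), Pttg1 (-0.72 ± 0.15, limma adjusted p = 0.0037) and Kif2c (-0.53 ± 0.13, limma adjusted p = 0.016). Kif2c lost the call without deficient replicate 5 (adjusted p = 0.0932) or excess replicate 4 (0.0503) in limma. Dsn1 was higher (0.89 ± 0.11, limma adjusted p = 1.7e-05), where 4.04% of all genes were. With array weights, and with median centring, 7 genes passed instead of 3.

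At day 14, 33 of 35 were lower in deficient than in excess medium (23.4% of all genes, median -1.46), and at day 21, 34 of 35 (28.5%, median -1.34). The largest differences at day 14 were in Kif20a (-2.97 ± 0.17), Cdc20 (-2.79 ± 0.13) and Pttg1 (-2.56 ± 0.13), and at day 21 in Cdc20 (-2.44 ± 0.13), Kif20a (-2.13 ± 0.17) and Cdca3 (-2.12 ± 0.13). The values not passing were Mybl2 (0.04 ± 0.17) and Dsn1 (0.01 ± 0.10) at day 14 and Mybl2 (-0.26 ± 0.17) at day 21.

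The beta-actin difference moved with excess medium, since 6 of its 10 arrays at days 14 and 21 were above 2. The mean of the 35 genes in excess arrays at day 14 was 8.82 and 8.94 in the 2 arrays at 1.40 and 1.67, and 8.88, 8.85 and 9.03 in the 3 arrays at 2.80, 2.79 and 2.37. Without all 8 arrays above 2, 34 of 35 genes were higher in excess at day 14 (median 1.32) and 34 at day 21 (median 1.12). With serial numbers up to 45 only, the counts were 33 and 34 and the medians 1.30 and 1.16.

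**Figure D4:**
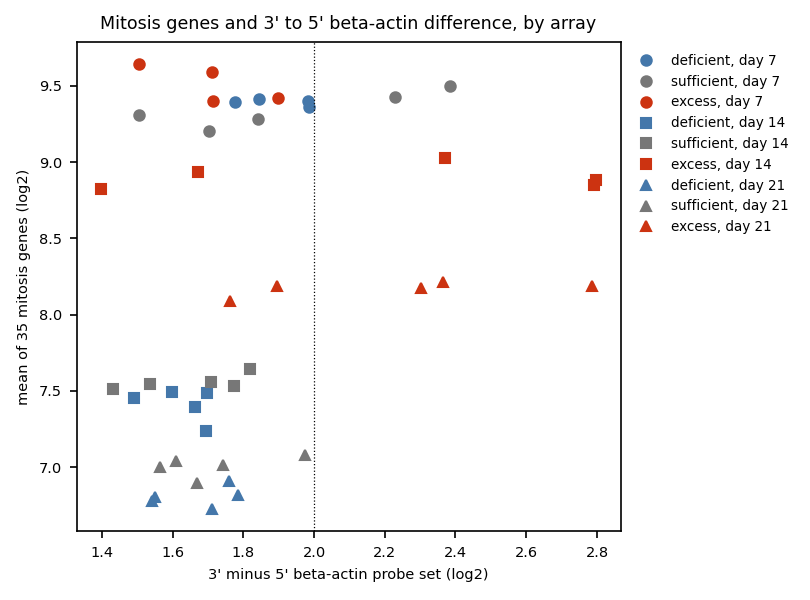
Mean log2 value of the 35 mitosis genes in each array (vertical) against the difference of the 3' and 5' beta-actin probe sets (horizontal, log2), with colour for medium and shape for day. Excess arrays of days 14 and 21 lie on both sides of the dotted line at 2.

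Skeletal muscle markers moved with the same groups. The mean of the 10 genes in the table, of which 6 passed the filter, was 4.65 in sufficient and 4.07 in excess medium at day 14, and 5.04 and 3.82 at day 21. In deficient medium at day 21 it was 5.32. At day 7 the media lay between 3.91 and 4.06. Acta1, skeletal alpha-actin, was lower in excess at day 14 (-1.57 ± 0.11, limma adjusted p = 1.4e-14) and at day 21 (-2.79 ± 0.11, limma adjusted p = 1.3e-22). Tnnt1 had means of 9.76 in sufficient and 6.62 in excess medium at day 21. Myog and Mymk, which act in muscle cell formation and fusion, stayed under the filter, as did Tnnt3 and Chrna1. Myod1 passed it and fell with time in every medium. Its means in sufficient and excess medium were 4.51 and 4.82 at day 7, and 2.56 and 2.31 at day 21. Smooth muscle markers had means of 10.69 and 10.40 at day 14 and 10.74 and 10.31 at day 21. The part of these cell states in the mitosis results was not tested.

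Other genes of mitosis were read from 6 further lists of 101 genes in all, with 1 list of MuvB partners besides. In excess against sufficient medium at day 14, 69 of the 101 were higher and 2 lower (median 0.51), against 22.3% and 18.8% of all genes. At day 21, 71 were higher and 1 lower (median 0.51), against 24.4% and 19.3%. The spindle list had 31 of 33 higher at day 14, the chromosome list 14 of 16, the checkpoint list 8 of 12, the entry list 7 of 12 and the cytokinesis list 6 of 10. Depdc1 (1.69 ± 0.12), Aspm, a spindle pole protein (1.68 ± 0.13), Plk4, the kinase of centriole copying (1.63 ± 0.16), Cenpw, of the inner kinetochore (1.52 ± 0.09), and the kinase Melk (1.52 ± 0.13) led at day 14. Melk (1.68 ± 0.13) and Ncapd2, a condensin subunit (1.67 ± 0.11), led at day 21.

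A further list held 18 genes of the anaphase-promoting complex and its partners. At day 14, 3 of them were higher (22.3% of all genes were), 1 was lower (18.8% of all) and 14 did not pass (median 0.09). The higher ones were Espl1, separase (0.94 ± 0.17), the ubiquitin-conjugating enzyme Ube2d1 (0.51 ± 0.15) and Anapc4 (0.21 ± 0.08), and Anapc2 was lower (-0.24 ± 0.07). At day 21, 5 of 18 were higher, against 24.4% of all genes, led by Espl1 (1.23 ± 0.17), with Cdc16 at 0.27 ± 0.08. The share of higher genes was near that over all genes on both days.

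Of the 11 genes of the MuvB and DREAM complexes, which carry repressors or activators to CHR promoters, 7 were higher in excess at day 14 (22.3% of all genes were), 1 lower (18.8% of all) and 3 not passing. Lin9 (0.84 ± 0.14) and Lin54, the subunit that contacts the CHR (0.78 ± 0.13), are core subunits, and Rbl1, or p107 (0.81 ± 0.10), and E2f5 (0.86 ± 0.12) belong to the repressive form. Lin37 was lower (-0.36 ± 0.11). Rbl2 (0.04 ± 0.11), E2f4 (0.01 ± 0.10) and Rb1 (-0.03 ± 0.07) did not pass.

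At day 7 the 101 genes gave 2 higher and 1 lower in excess, with a median of 0.02, against 0.275% and 2.1% of all genes. These were Incenp, the scaffold of the passenger complex (0.51 ± 0.13), Ncapd2 (0.43 ± 0.11) and Cenpq, of the inner kinetochore (-0.39 ± 0.11). In deficient against sufficient medium at day 21, 1 of the 101 passed, and it was higher, as were 0.407% of all genes. That was Spc24 (0.60 ± 0.11, limma adjusted p = 0.0024), partner of Spc25 in the NDC80 complex, for which the difference was -0.26 ± 0.08 (not passing). From day 7 to day 14, 80 of the 101 fell in sufficient medium (24.7% of all genes), 80 in deficient medium (26.2%) and 60 in excess medium (20.9%).

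Within groups the genes varied together only in part. After the group means were removed, a gene's correlation over the 43 arrays with the mean of the other 34 had a median of 0.42, from 0.06 for Ccna2 to 0.75 for Pttg1, followed by Racgap1 (0.66), Ccnb2 (0.63) and Cdca3 (0.62). The median over all genes tested was 0.10. Dsn1 (0.09), Bub1 (0.09), Mad2l1 (0.13) and Mybl2 (0.19) were near the low end. Arrays of a group share medium, day and normalization, so these values are a description.

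For 11 genes more than 1 probe set was above the filter. The sets of a gene gave differences of excess from sufficient medium of the same sign at days 14 and 21. At day 7 the signs disagreed for Mad2l1 (0.12 and 0.08 against -0.03) and Mybl2 (-0.01 and 0.02). Some second sets gave larger differences at day 7 than the sets used, as in Kif2c (0.93 against 0.33), Kif23 (0.76 against 0.24), Racgap1 (0.72 against 0.24) and Kif11 (0.62 against 0.12). When probe sets were averaged 7 of the 35 genes passed at day 7, all higher, and no share over all genes is given for that setting. The second Kif23 set and the dimmest of the 3 Mad2l1 sets gave 0.33 and 0.36 at day 14, against 1.65 and 1.02 for the brighter ones. The second Ttk set gave 0.53 against 1.26. In deficient against sufficient medium the signs disagreed at day 14 for Kif2c (0.10 and -0.14) and Ttk (-0.05 and 0.20), and at day 21 for Kif23 (-0.33 and 0.08), Mybl2 (0.13 and -0.12), Mad2l1 and Ttk. At day 7 they disagreed for Ccnb1 (-0.07 and 0.16), Cdc20 (0.22 and -0.16), Kif2c (-0.19 and 0.18), Kif23, Mad2l1 and Ttk. Of all these genes only Cdc20 passed in deficient against sufficient medium, at day 14, where both its sets were lower (-0.62 and -0.46).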

How the data were processed

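RNA of 43 A7r5 samples was labelled and hybridised to Affymetrix Rat230_2 arrays, per the labels' protocols. The deposited table holds log2 values of 31099 probe sets that the authors made with GCRMA, per the submitters' processing notes, which also name limma and give no versions. GCRMA corrects background and scales arrays by quantiles, so values near background compress a fold change. Groups and replicate numbers came from the sample titles. Gene symbols came from the annotation of the array platform (20832 with 1 symbol, 436 with several, 9831 unnamed), and probe sets with several symbols were not used.

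A probe set passed with a log2 value above 4 in at least 4 arrays, and the one with the highest mean stood for its gene. A linear model of the 9 group means was fitted to all 43 arrays with limma 3.58.1 (R 4.3.3, 34 residual and 4.12 prior degrees of freedom), and two-sided p-values were adjusted by Benjamini-Hochberg over 9095 genes at 0.05. It was tested on simulated data. There were 17 planned comparisons and 2 added ones (the change of the excess difference from day 7 to day 14 and from day 14 to day 21). Members, steps and gene lists were chosen with earlier results of these data known. Named genes were, for medium, all called members up to 12, otherwise the 3 largest of each step. For days they were the 3 largest and 3 smallest with the step medians. The highest and lowest uncalled members and up to 5 called genes of the other lists were added, and up to 12 members, and Dsn1 besides, were given by array. Alternatives covered the filter, probe set averaging, quantile normalization, median centring, array weights, an intensity trend, the groups used, array series, beta-actin, the replicate block and leaving out each array. Leaving out arrays above the beta-actin limit was added after the data were seen. Promoter motifs and plots used Python 3.11.15, pandas 2.3.3 and matplotlib 3.10.9.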

Additional observations from a re-analysis of the deposited data

Results flagged for a closer look

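Dixon's test was applied to 108 groups of 4 or 5 arrays (12 genes given by array, without Dsn1, in 9 groups), and chance alone marks about 1 in 20. It marked 7 values in 6 arrays. Excess day 14 replicate 4 was high for Pttg1 (8.67, others 8.24 to 8.35) and for Kif11 (8.75, others 8.48 to 8.54). In excess medium at day 21, Kif20a was high in replicate 1 (8.55, others 7.93 to 8.06) and Cdc20 low in replicate 2 (7.27, others 7.63 to 7.72). In deficient medium at day 7, Kif11 was high in replicate 2 (8.98, others 8.84 to 8.85) and Cdca3 low in replicate 5 (8.99, others 9.20 to 9.22). Cdca3 was also low in sufficient day 21 replicate 6 (5.79, others 6.31 to 6.46).

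The difference of excess from sufficient medium changed with time in 11 of these 12 genes, by the test of the change itself in limma. From day 7 to day 21 it grew in Foxm1 (0.77), Cdca3 (1.78), Aurka (0.70), Kif11 (1.68), Bub1 (0.64), Bub1b (1.41), Cdc20 (1.42), Pttg1 (0.84), Racgap1 (1.29) and Kif20a (1.51). From day 7 to day 14 it grew in Foxm1 (0.77), Cdca3 (1.93), Aurka (1.28), Kif11 (1.60), Cenpe (0.96), Bub1 (0.71), Bub1b (1.85), Cdc20 (1.54), Pttg1 (1.37), Racgap1 (1.17) and Kif20a (2.13). From day 14 to day 21 it shrank in Aurka (-0.58). Dimmer probe sets of Kif11, Cdc20 and Racgap1 grew by less from day 7, as given above. Over all genes tested, the difference grew in 17% from day 7 to day 21 and in 13.8% from day 7 to day 14. It shrank in 4.67% from day 14 to day 21. Most of the 12 genes were picked for large differences between media, so the count of 11 was favoured by that choice.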

How the results depend on the processing

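Of 411 results for single genes past the threshold, 370 kept direction and call under every alternative run, 41 lost the call in at least 1, and 0 changed sign. The excess counts at days 14 and 21 stayed at 33 or more under every alternative and 33 to 35 when any array was left out. The small counts moved, and no share over all genes is given for the alternatives. With array weights the number of genes called was 1 for deficient against sufficient medium at day 7, 6 at day 14 and 9 at day 21, 9 for excess against sufficient and 7 for deficient against excess at day 7. It was 2 for the change of the deficiency difference to day 21 and 8 for the change of the excess difference from day 14 to day 21. With only the groups compared, deficient gave 0 at day 14 and 1 at day 21, and excess at day 7 gave 0. With serials up to 45, deficient gave 0 and 1, excess at day 7 gave 3 and the later change of the excess difference 2. Without a filter deficient at day 14 gave 0, and with probe sets averaged deficient at day 21 gave 1. Median centring gave 7 for deficient against excess at day 7 and 1 for the change of the deficiency difference. Array series as a covariate gave 2 for deficient at day 14 and 2 for that change. Without the arrays of high beta-actin difference that change gave 1, as did the later change of the excess difference. The cause of these moves was not tested.

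With the replicate block, deficient against sufficient at day 14 gave 0, and Cenpe in excess at day 7 lost its call (adjusted p = 0.0527 in limma). Same-numbered arrays did not deviate together (median r -0.01 over 133 pairs, 0.00 over 688 pairs of different numbers), so the numbers were not taken to pair samples. Leaving out 1 array gave 0 to 1 genes for deficient against sufficient at day 7, 0 to 2 at day 14 and 1 to 2 at day 21, 2 to 6 for excess at day 7, 0 to 1 for the change of the deficiency difference and 2 to 6 for the later change of the excess difference. The arrays numbered above 45 include most late excess arrays of high beta-actin difference, so these 2 influences overlap. Background correction could not be varied, and values near 4 are close to background.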
